A study of Homo sapiens with 8 samples.

Results

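STARD4, NPC1L1, NPC1, NPC2 and SCARB1 take up cholesterol from outside the cell or carry it inside the cell, and their RNA levels were followed in a liver cell line exposed to plastic antioxidants. They were chosen by name for this role and are 5 of the 60230 genes in the count table. These genes and the lists used below were chosen with earlier results of these data known. The cells were HepG2, an established hepatocellular carcinoma line, transfected to overexpress the drug-metabolising enzyme CYP3A4 and kept under blasticidin in all 4 groups. Control cells received 0.2% DMSO, the solvent, and the other groups received compound 4, 5 or 6, with 2 samples in each group. The study's methods give a single exposure of 24 h, whereas the labels mark the samples of each group day 1 and day 2 under a time tag. They were taken as replicates 1 and 2; if the days were exposure times, n, the SDs and the p-values would cover time as well as replicate spread. The labels name compound 4 metylcresol, compound 5 tetrabut and compound 6 cyclohexil. All are antioxidants in which a short bridge joins a pair of phenol rings. Compounds 4 and 6 share the same bridge and a methyl group on each ring, and differ in whether each ring also carries a tert-butyl group (4) or a cyclohexyl group (6). In compound 5 the bridging carbon carries a methyl branch, and each ring carries a pair of tert-butyl groups and no methyl group. Each compound was given at its own IC50, the concentration that halved viability in a separate assay with a longer exposure than 24 h. The compounds are therefore not compared at a matched concentration.

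Liver cells obtain cholesterol from lipoproteins. Particles that enter by endocytosis are broken down in lysosomes, where the soluble protein NPC2 binds the freed cholesterol and hands it to the membrane protein NPC1, which exports it. SCARB1 encodes SR-BI, a surface receptor that takes cholesteryl ester from high-density lipoprotein without internalising the particle. NPC1L1, a relative of NPC1, takes up free cholesterol at the apical membrane of enterocytes and, in humans, at the canalicular membrane of hepatocytes. STARD4 is a soluble carrier that moves cholesterol between membranes through the cytosol. When membranes are low in sterol, the transcription factor SREBP2 is released and switches on genes of cholesterol synthesis and uptake, often through a sterol regulatory element with NF-Y or Sp1 sites nearby.

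The 8 libraries held 9472261 to 13308975 counts. Levels are given as CPM, counts scaled to a common library total, after TMM scaling, and in these units 3 counts correspond to 0.225 to 0.317 CPM before scaling. Liver markers were high in every sample: albumin (ALB) stood at 12561 to 18489 CPM and HNF4A at 320 to 406 CPM. Summed over 7 liver markers, the DMSO samples held 30451 and 27118 CPM, the compound 4 samples 20985 and 25026, the compound 5 samples 20466 and 21725, and the compound 6 samples 25858 and 21286. The sum, most of it ALB, was lower in all treated samples than in both controls, although edgeR did not call ALB with any compound. DESeq2 called ALB lower with compound 5 (adjusted p = 0.031) and AFP lower with compound 6 (0.0114), where edgeR did not (0.0557 and 0.0685). By edgeR, 2 of the 7 markers fell and 1, APOA2, rose with compound 4 (log2 fold change 0.51, edgeR adjusted p = 0.0213). Of the same markers, 3 fell with compound 5 and 1, APOA1, with compound 6, and HNF4A was called with none. Over all tested genes, 5.42%, 14.2% and 1.6% were called lower with compounds 4, 5 and 6, and 6.5% higher with compound 4. The APOA1 call with compound 6 (-0.74, edgeR adjusted p = 0.0375) was lost with the replicate block (0.0576). The 7 markers of other cell types summed to 1.28 and 0.986 CPM in DMSO samples, 2.65 and 2.89 in compound 4 samples, 1.74 and 1.41 in compound 5 samples and 3.13 and 2.88 in compound 6 samples, so that every treated sample lay above both controls. The monocyte marker CD14, the one of these that passed the filter, rose with compounds 4 and 6 (log2 fold changes 2.94 and 2.75, edgeR adjusted p = 0.0162 and 0.0476) and reached at most 1.25 CPM, while the leukocyte gene PTPRC was at 0 throughout. The CD14 call with compound 6 was lost with the replicate block (0.0568), and DESeq2 called it with neither (adjusted p = 0.0808 and 0.171). The part of either marker set in the results that follow was not tested. In bulk RNA, fewer cells of a kind and less RNA per cell cannot be told apart. Nothing in the labels says whether the samples of a group were separate cultures, so the p-values measure the spread between these samples, which may be technical. Genes were tested with edgeR's quasi-likelihood model over all 13404 genes that passed the filter on low counts, which included all 5 described here, and a gene was called where its p, adjusted by Benjamini-Hochberg, was under 0.05.

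The upstream sequences of 3 of the genes are shown because STARD4 and NPC1L1 both fell with compounds 4 and 5, while NPC1 rose with compound 5. Each is the 250 bases before the annotated transcription start (RefSeq, GRCh38.p14, minus strand), written 5′ to 3′ on the gene's strand, at chr5:111512536-111512785 for STARD4, chr7:44541331-44541580 for NPC1L1 and chr18:23586507-23586756 for NPC1. Capitals mark the letters CCAAT (the NF-Y box) and GGGCGG (the Sp1 box) or their reverse complements.
STARD4: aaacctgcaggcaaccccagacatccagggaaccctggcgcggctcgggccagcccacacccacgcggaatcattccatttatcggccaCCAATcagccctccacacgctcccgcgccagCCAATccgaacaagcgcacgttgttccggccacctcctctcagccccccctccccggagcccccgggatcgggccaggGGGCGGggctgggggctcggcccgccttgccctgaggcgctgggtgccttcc
NPC1L1: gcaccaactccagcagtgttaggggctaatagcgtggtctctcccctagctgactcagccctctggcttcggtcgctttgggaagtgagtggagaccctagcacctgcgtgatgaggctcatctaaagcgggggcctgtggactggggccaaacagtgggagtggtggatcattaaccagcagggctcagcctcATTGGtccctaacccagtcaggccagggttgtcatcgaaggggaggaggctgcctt
NPC1: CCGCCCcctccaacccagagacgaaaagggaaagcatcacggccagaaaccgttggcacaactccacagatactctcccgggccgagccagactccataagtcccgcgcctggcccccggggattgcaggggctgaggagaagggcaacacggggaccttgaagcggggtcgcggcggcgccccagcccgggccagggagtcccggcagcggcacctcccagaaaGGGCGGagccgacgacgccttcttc
STARD4 held 2 NF-Y boxes and 1 Sp1 box, NPC1L1 held 1 NF-Y box, and NPC1 held 2 Sp1 boxes and no NF-Y box. NPC2 has 2 annotated starts, with 2 NF-Y and 5 Sp1 boxes before one and 9 Sp1 boxes before the other, some of them overlapping. On both strands, CCAAT occurred in 32.0% and GGGCGG in 42.6% of 35116 human windows of the same length. The sterol regulatory element, searched as TCACNCCAC, occurred in 0.883% of windows, and the palindromic E-box CACGTG in 6.34%. Neither string is in the windows of these 4 genes, which says only that those letters are not in the 250 bases searched. SCARB1, which also fell with compound 5, had no upstream sequence in the reference used and was not searched.

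STARD4 RNA fell with compounds 4 and 5. The gene (ENSG00000164211) lies on the minus strand of chromosome 5 at 111496033 to 111512590 (GRCh38), with up to 6 exons. The DMSO samples held 35.7 and 34.5 CPM, the compound 4 samples 17.8 and 22.4 CPM, the compound 5 samples 14.2 and 17.3 CPM, and the compound 6 samples 33.4 and 26.8 CPM. The samples with compounds 4 and 5 all lay below those with DMSO and with compound 6, and the compound 4 and compound 5 samples did not overlap, although the gap between them was less than 1 CPM. Against DMSO, the log2 fold change was -0.80 ± 0.16 (SE) with compound 4, a fall of 42.7% (edgeR adjusted p = 0.0104). With compound 5 it was -1.15 ± 0.17 and the gene fell by 55.1% (edgeR adjusted p = 8.48e-04). With compound 6 the log2 fold change was -0.23 ± 0.16, with a 95% interval from -0.58 to 0.12 (edgeR adjusted p = 0.472). It was -0.36 without compound 6 replicate 1 and -0.07 without compound 6 replicate 2, and was called in neither case. The compound 4 call was lost without DMSO replicate 1 (-0.78, edgeR adjusted p = 0.0632) or DMSO replicate 2 (-0.83, edgeR adjusted p = 0.0743), with little change in the fold.

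NPC1L1 showed the largest fold changes of the 5 genes with compounds 4 and 5, and the smallest with compound 6. With compound 4 its lead over STARD4 (-0.80 ± 0.16) lay within the SEs. Without compound 4 replicate 2 STARD4 was at -0.97, while NPC1L1 went no lower than -0.9 in any fit that left out a sample. With compound 6, SCARB1 had the smaller change without compound 6 replicate 2 (3.6e-03). NPC1L1 lies on the minus strand of chromosome 7 at 44512535 to 44541315 (ENSG00000015520, 20 exons in its longest form). The DMSO samples held 47.7 and 49.9 CPM, the compound 4 samples 25.8 and 29 CPM, the compound 5 samples 17.6 and 20.1 CPM, and the compound 6 samples 51.8 and 49.3 CPM. The levels with compound 5, compound 4 and DMSO formed 3 ranges that did not overlap, in rising order, while the compound 6 samples overlapped those with DMSO. NPC1L1 fell by 43.8% with compound 4 (log2 fold change -0.83 ± 0.12, edgeR adjusted p = 0.00203) and by 61.3% with compound 5 (-1.37 ± 0.12, edgeR adjusted p = 9.71e-05). Both calls were made under every alternative setting and without any one of the 8 samples. With compound 6 the log2 fold change was 0.05 ± 0.12, with a 95% interval from -0.21 to 0.31 (edgeR adjusted p = 0.864).

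**Figure D1:**
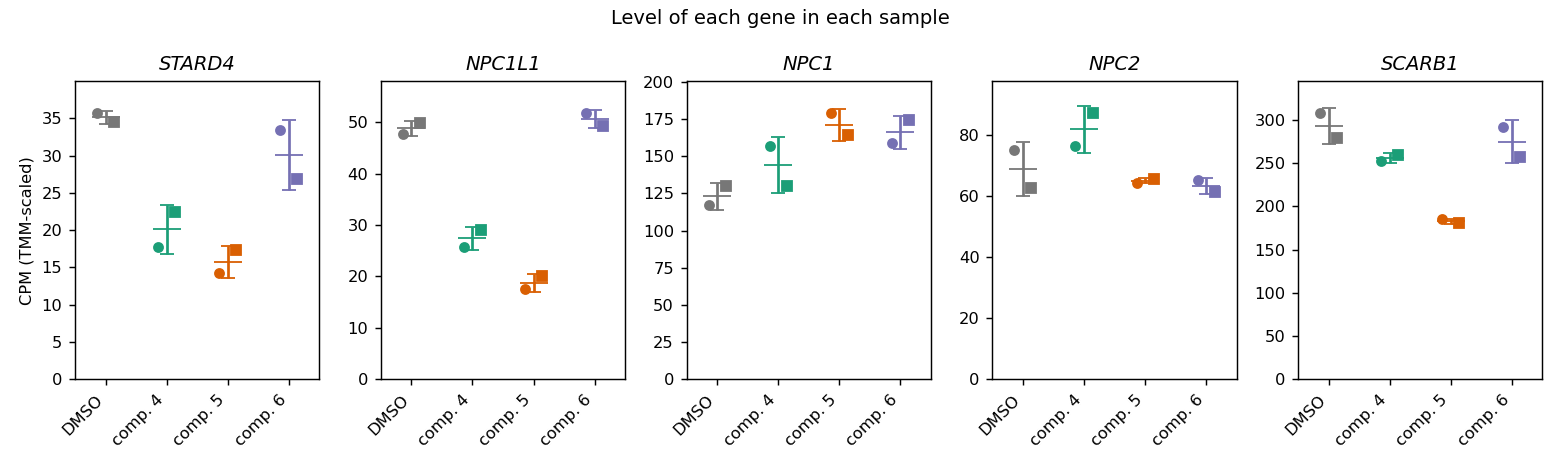
Scaled level (CPM, linear axis from 0) of each gene in the 8 samples, with circles for replicate 1, squares for replicate 2, a dash for the group mean and bars for the SD (n = 2). STARD4 and NPC1L1 sit lowest with compound 5 (14.2 to 20.1 CPM) and next lowest with compound 4, SCARB1 is lowest with compound 5, and NPC1 is higher with compounds 5 and 6 than with DMSO.

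SCARB1 fell with compound 5. It lies on the minus strand of chromosome 12 at 124776856 to 124882668 (ENSG00000073060, up to 13 exons) and had the highest counts of the 5 genes, between 2018 and 3395 per sample. DMSO samples were at 308 and 279 CPM, compound 4 samples at 252 and 259 CPM, compound 5 samples at 185 and 181 CPM, and compound 6 samples at 292 and 257 CPM. The compound 5 samples lay below all the others, the compound 4 samples lay below both DMSO samples, and the compound 6 samples overlapped both of those groups. The fall with compound 5 was 37.6% (log2 fold change -0.68 ± 0.10, edgeR adjusted p = 0.00122), and it was called in every setting and without any one sample. The log2 fold change was -0.20 ± 0.10 with compound 4 (95% interval -0.43 to 0.03, edgeR adjusted p = 0.254) and -0.10 ± 0.10 with compound 6 (-0.33 to 0.13, edgeR adjusted p = 0.666).

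NPC1 was the gene of the group that rose, and it did so with compound 5. It lies on the minus strand of chromosome 18 at 23506184 to 23586898 (ENSG00000141458, 25 exons). The DMSO samples held 117 and 130 CPM, the compound 4 samples 157 and 130 CPM, the compound 5 samples 179 and 164 CPM, and the compound 6 samples 159 and 174 CPM. All samples with compounds 5 and 6 lay above both DMSO samples, and the compound 4 samples were spread from the DMSO level to near that of compound 6. NPC1 rose by 38.7% with compound 5 (log2 fold change 0.47 ± 0.12, edgeR adjusted p = 0.0155). This call was lost without DMSO replicate 1 (0.40, edgeR adjusted p = 0.128) or compound 5 replicate 1 (0.44, edgeR adjusted p = 0.103). With compound 6 the fold was nearly as large but missed the threshold (0.43 ± 0.12, 95% interval 0.16 to 0.70, edgeR adjusted p = 0.0704), and DESeq2 did call it (adjusted p = 0.0324). With compound 4 it was 0.22 ± 0.12 (-0.05 to 0.48, edgeR adjusted p = 0.286), and between 0.08, without compound 4 replicate 1, and 0.36, without compound 4 replicate 2, when 1 sample was left out. The span of RMC1, a gene of a lysosomal trafficking complex on the opposite strand, overlaps that of NPC1 over 25624 bases, introns included. RMC1 was itself higher with compound 5 (log2 fold change 0.44, edgeR adjusted p = 0.0361). The library kit kept strand, but whether the counting used it was not given in the sources used here, and the part of this overlap in the NPC1 values was not tested. RMC1 held 137 to 244 counts per sample against 1188 to 2115 for NPC1.

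NPC2, which works with NPC1 in the lysosome, was not called with any compound. It lies on the minus strand of chromosome 14 at 74476192 to 74494177 (ENSG00000119655, up to 5 exons). DMSO samples held 75.1 and 62.7 CPM of NPC2, compound 4 samples 76.4 and 87.2, compound 5 samples 64.4 and 65.6, and compound 6 samples 65.1 and 61.3. Both compound 4 samples lay above the DMSO range, compound 6 replicate 2 lay just below it, and the remaining samples lay within it. The log2 fold changes were 0.25 ± 0.12 with compound 4 (95% interval -0.02 to 0.51, edgeR adjusted p = 0.212), -0.08 ± 0.12 with compound 5 (-0.35 to 0.18, edgeR adjusted p = 0.639) and -0.12 ± 0.12 with compound 6 (-0.39 to 0.14, edgeR adjusted p = 0.622). The value with compound 4 was 0.12 without DMSO replicate 2 and 0.38 without DMSO replicate 1. ISCA2, an iron-sulfur cluster assembly gene on the opposite strand, overlaps NPC2 over 458 bases of the gene spans and fell with compound 5 (-0.66, edgeR adjusted p = 0.00966). It held 106 to 210 counts per sample against 624 to 1118 for NPC2.

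Read against the whole table, 2 of the 5 genes were called lower with compound 4, where 5.42% of all tested genes were, and 0 were called higher, where 6.5% were. With compound 5, 3 were called lower against 14.2% of all tested genes and 1 higher against 13.9%. With compound 6, edgeR called 0 in either direction, against 1.6% lower and 2.8% higher over the table. For compound 6 the unadjusted p was under 0.05 for 1 of the 5, NPC1, the gene that DESeq2 also called. The median log2 fold change of the 5 was -0.20, -0.68 and -0.10 with compounds 4, 5 and 6, beside medians of 0.00, -0.03 and 0.00 over all tested genes. The 3 comparisons share their DMSO samples, and the genes were chosen with earlier results of these data known.

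**Figure D2:**
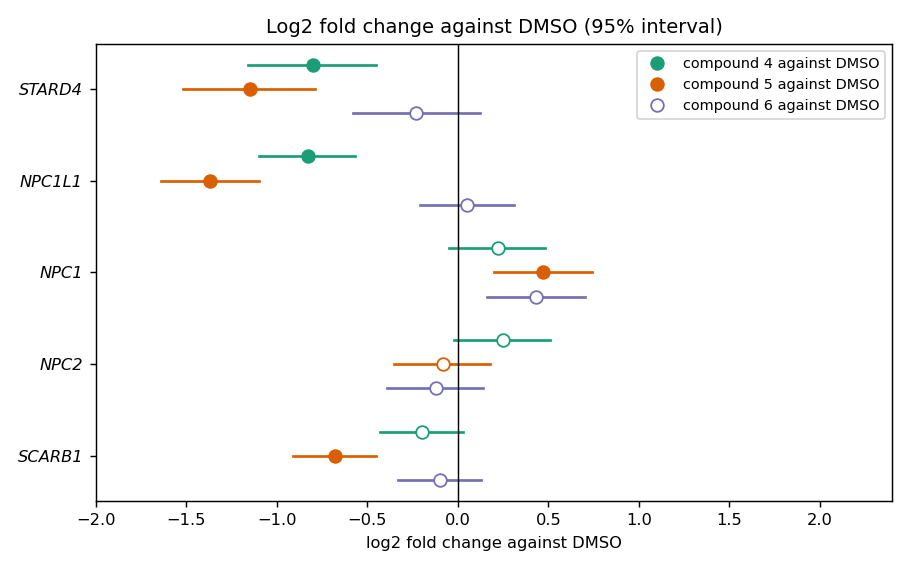
Log2 fold change of each gene against DMSO with its 95% interval, for compounds 4, 5 and 6, with filled points for genes called by edgeR at an adjusted p under 0.05 and open points for the rest. The filled points are STARD4 and NPC1L1 with compounds 4 and 5 (-0.80 to -1.37), SCARB1 with compound 5 (-0.68) and NPC1 with compound 5 (0.47).

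The compounds were then compared with each other, at their own IC50, in 3 pairs. Compound 5 gave lower levels than compound 6 in 3 of the 5 genes, where 9.91% of all tested genes were called in either direction. NPC1L1 was 62.6% lower (log2 difference -1.42 ± 0.12, edgeR adjusted p = 3.39e-04), STARD4 47.4% lower (-0.93 ± 0.17, edgeR adjusted p = 0.00951) and SCARB1 33.4% lower (-0.59 ± 0.10, edgeR adjusted p = 0.00927). The STARD4 call was lost without compound 5 replicate 1 (-0.79, edgeR adjusted p = 0.0947) or compound 6 replicate 1 (-0.76, edgeR adjusted p = 0.084). That of SCARB1 was lost without either compound 5 sample or compound 6 replicate 1 (edgeR adjusted p = 0.0783, 0.0766 and 0.0781). For NPC1 and NPC2 the difference between these compounds was 0.04 each, with 95% intervals from -0.22 to 0.31 and from -0.23 to 0.31. Its sign was negative (-0.04 each) under upper-quartile scaling and under scaling by library size alone.

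Compound 5 also gave lower levels than compound 4 in 2 of the 5 genes, against 13.9% of all tested genes called in either direction. NPC1L1 was 31.2% lower (-0.54 ± 0.13, edgeR adjusted p = 0.0228) and SCARB1 28.4% lower (-0.48 ± 0.10, edgeR adjusted p = 0.0177). Both calls were lost without compound 4 replicate 2, compound 5 replicate 1 or compound 5 replicate 2, in that order at edgeR adjusted p = 0.107, 0.162 and 0.0815 for NPC1L1 and 0.0554, 0.111 and 0.116 for SCARB1. The NPC1L1 call was also lost in a fit of only these groups (-0.52, edgeR adjusted p = 0.0719). The difference was not called for STARD4 (-0.35, 95% interval -0.72 to 0.02, edgeR adjusted p = 0.18), NPC1 (0.26, -0.01 to 0.52, edgeR adjusted p = 0.171) or NPC2 (-0.33, -0.60 to -0.07, edgeR adjusted p = 0.0861). The STARD4 difference was -0.16 without compound 4 replicate 2 and -0.50 without compound 4 replicate 1. The interval of NPC2 does not include 0, since it is not adjusted for the number of genes. Without compound 4 replicate 1, both NPC1 (0.40, edgeR adjusted p = 0.0456) and NPC2 (-0.42, edgeR adjusted p = 0.0408) were called, and NPC2 was also called when scaled by library size alone (-0.40, edgeR adjusted p = 0.0468).

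Between compounds 4 and 6, which differ in a tert-butyl against a cyclohexyl group on each ring, NPC1L1 was the gene called. It was 45.7% lower with compound 4 (-0.88 ± 0.12, edgeR adjusted p = 0.0377), in a comparison where 0.0448% of the table, or 6 genes, were called. With day 1 and day 2 of the labels as a replicate block, the adjusted p was 0.0581 and the call was lost, as it was in 7 of the 8 fits that left out a sample (edgeR adjusted p = 0.0716 to 0.155), the exception being compound 4 replicate 1 (0.035). It was also lost in a fit of only these groups (edgeR adjusted p = 0.152). Under DESeq2 the adjusted p was 1.60e-04. The intervals for the other genes were -0.94 to -0.21 for STARD4 (-0.58, edgeR adjusted p = 0.33), -0.48 to 0.05 for NPC1, 0.11 to 0.64 for NPC2 (0.37, edgeR adjusted p = 0.4) and -0.33 to 0.13 for SCARB1. For STARD4 and NPC2 the samples of these compounds did not overlap, although neither difference was called. How many of all tested genes separate in this way, here and in the other comparisons, was not counted. With no filter on low counts, the STARD4 difference was called (-0.58, edgeR adjusted p = 0.0323).

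**Figure D3:**
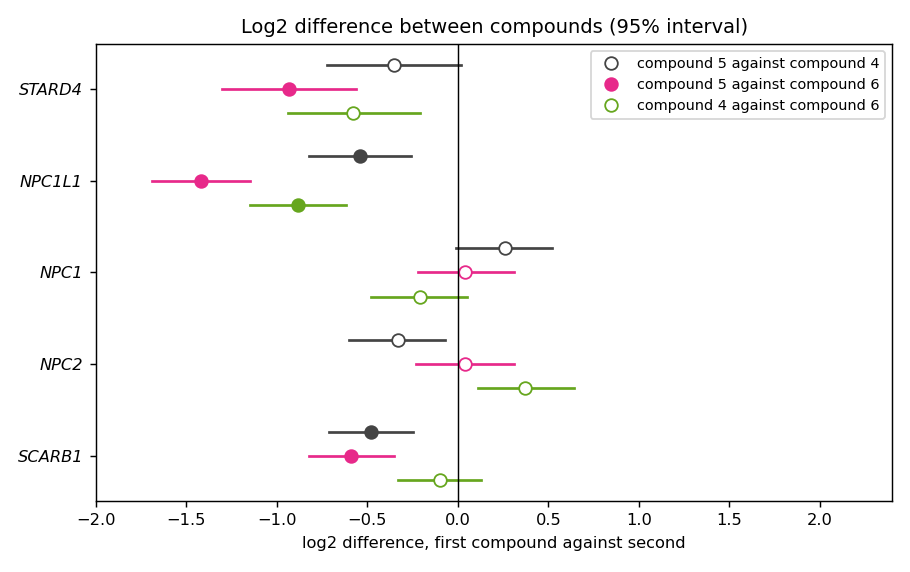
Log2 difference of each gene between compounds, each at its own IC50, with its 95% interval; filled points are called by edgeR at an adjusted p under 0.05 and open points are not. NPC1L1 is filled in all 3 pairs (-0.54 to -1.42), SCARB1 in both pairs with compound 5, and the NPC1 and NPC2 points of compound 5 against 6 lie near 0.

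Levels were compared between genes per kilobase of the longest protein-coding transcript (GENCODE 29). In DMSO the order was SCARB1 (88.1 ± 6.12 CPM per kb, SD, n = 2), NPC2 (48.0 ± 6.11), NPC1 (23.9 ± 1.78), NPC1L1 (9.67 ± 0.3) and STARD4 (7.63 ± 0.187), and no neighbours in this order overlapped within their SDs. With compound 5 the same order ran from 55 ± 0.852 for SCARB1 over 45.3 ± 0.549 for NPC2 and 33.2 ± 2.05 for NPC1 to 3.73 ± 0.35 for NPC1L1 and 3.42 ± 0.47 for STARD4, and the last pair differed by less than their SDs. In units of CPM per kb, SCARB1 thus stood closer to NPC2 and NPC1 with compound 5 than with DMSO. The place of NPC2 depends on the length used: over the union of all its exons it was at 25.4 CPM per kb with compound 5 and 24.7 with compound 6, below NPC1 at 33.2 and 32.3.

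**Figure D4:**
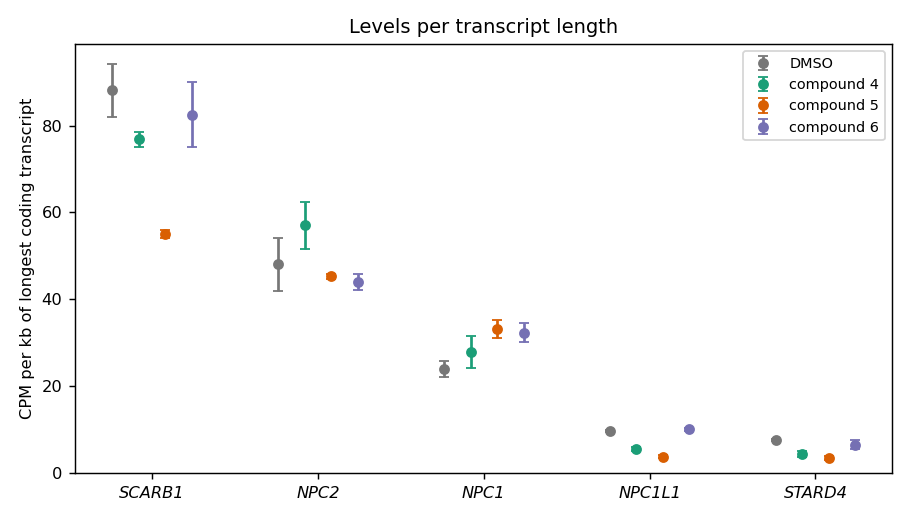
Level of each gene in CPM per kilobase of its longest protein-coding transcript (linear axis from 0), as group means with SD (n = 2) for DMSO and compounds 4, 5 and 6. SCARB1 runs from 88.1 in DMSO to 55 with compound 5, while NPC1L1 and STARD4 are at or below 10.0 in every group.

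Other genes of the same route were taken from 4 lists, of which 38 of 43 genes passed the filter. With compound 4, 2 of the 38 rose and 3 fell, where 6.5% and 5.42% of all tested genes did. With compound 5, 7 rose and 6 fell, beside 13.9% and 14.2% of all tested genes, and with compound 6, 2 rose and 1 fell, beside 2.8% and 1.6%. For compounds 4 and 5 these counts are near the shares over the table. The median log2 fold change over the 38 was -0.03, -0.03 and 0.04, close to that of all genes. All of these counts were smaller without either DMSO sample. Leaving out DMSO replicate 1, edgeR called 1 higher and 0 lower for compound 4, 3 higher and 3 lower for compound 5, and 0 in either direction for compound 6. Leaving out DMSO replicate 2, the counts for the 3 compounds were 0 and 0, 4 and 3, and 0 and 0. Calls over the whole table were fewer in these fits as well: 663 and 335 for compound 4, 1685 and 2007 for compound 5, and 90 and 1 for compound 6 without DMSO replicate 1 and 2, respectively. Without compound 5 replicate 2, the genes called lower with compound 5 were 2, and without compound 6 replicate 2, edgeR called 0 genes of the lists with compound 6.

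Among surface receptors and their adaptors (13 of 13 tested), PDZK1 fell with all 3 compounds. It encodes the scaffold that keeps SR-BI, the SCARB1 product, at the surface of hepatocytes. Both DMSO samples held 22.4 CPM, the compound 4 samples 11.5 and 14.8, the compound 5 samples 10.3 and 10.8, and the compound 6 samples 13.9 and 12.8, every treated sample being below both controls. The log2 fold changes were -0.77 ± 0.15, -1.09 ± 0.15 and -0.76 ± 0.15 (edgeR adjusted p = 0.00918, 7.97e-04 and 0.0238). VLDLR, the very low-density lipoprotein receptor, rose from 8.96 and 9.37 CPM to 22.5 and 23.6 with compound 5 (1.33 ± 0.19, edgeR adjusted p = 8.18e-04) and to 15.1 and 23.0 with compound 6 (1.06 ± 0.19, edgeR adjusted p = 0.0155). MYLIP, a sterol-induced ubiquitin ligase that marks lipoprotein receptors for degradation, fell with compound 5 from 5.71 and 9.04 to 3.85 and 2.59 CPM (-1.22 ± 0.27, edgeR adjusted p = 0.00802). The MYLIP samples were the most spread of these, and without DMSO replicate 2 the change was -0.81 and was not called (edgeR adjusted p = 0.0931); nor was it without compound 5 replicate 2 (-0.95, edgeR adjusted p = 0.0713). The calls with compound 6 for PDZK1 and VLDLR were lost without either DMSO sample or compound 6 replicate 2 (edgeR adjusted p = 0.122, 0.171 and 0.256 for PDZK1, and 0.111, 0.142 and 0.15 for VLDLR). Those for PDZK1 with compound 4 were lost without either DMSO sample (edgeR adjusted p = 0.0541 and 0.0822).

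Of the 6 genes that recycle NPC1L1 between the surface and endosomes, 1 fell with compound 5, where 14.2% of all tested genes did, and none was called with compounds 4 and 6, and the medians of the list were -0.10, -0.01 and 0.10. Among 8 tested genes of late endosomes and lysosomes, TMEM97, a sterol-regulated protein that binds NPC1, fell from 165 and 146 CPM to 93.9 and 91.4 with compound 4 (-0.75 ± 0.16, edgeR adjusted p = 0.0119) and to 88.4 and 87.1 with compound 5 (-0.83 ± 0.16, edgeR adjusted p = 0.00359). With compound 6 it stood at 121 and 83.2 CPM (-0.61, edgeR adjusted p = 0.054), which was called with the replicate block (0.0452) and by DESeq2 (0.00716). Without either DMSO sample the compound 4 call was lost (edgeR adjusted p = 0.0893 and 0.0571). LAMP1, an abundant lysosomal membrane protein, stood at 266 and 274 CPM with compound 4 against 209 and 212 with DMSO (0.36 ± 0.10, edgeR adjusted p = 0.0437). That call did not hold with the replicate block (0.0544), nor without either compound 4 sample (edgeR adjusted p = 0.0552 and 0.0827), and it was lost in 10 alternatives in all. With compound 5, 3 of the 8 genes rose and 1, TMEM97, fell, beside 13.9% and 14.2% of all tested genes.

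Among 11 tested genes of membrane contact sites, the cytosol and cholesteryl ester storage, GRAMD1A rose with all 3 compounds. Its product, also called Aster-A, carries cholesterol from the plasma membrane to the endoplasmic reticulum. The DMSO samples held 45.1 and 44.5 CPM, the compound 4 samples 81.7 and 77.2, the compound 5 samples 72.9 and 85.7, and the compound 6 samples 63.7 and 85.2, with every treated sample above both controls. The log2 fold changes were 0.83 ± 0.14, 0.83 ± 0.14 and 0.74 ± 0.15 (edgeR adjusted p = 0.00521, 0.00248 and 0.0215). The compound 4 call was lost without DMSO replicate 2 (edgeR adjusted p = 0.0668), and the compound 6 call without either DMSO sample or compound 6 replicate 2 (edgeR adjusted p = 0.126, 0.176 and 0.224; fold 0.52 in the last). OSBPL2, an oxysterol-binding protein relative, rose with compound 5 from 53.9 and 51.9 to 95 and 91.5 CPM (0.82 ± 0.11, edgeR adjusted p = 6.91e-04). SOAT1, which esterifies cholesterol for storage, stood at 34.4 and 36.0 CPM with compound 4 against 47.9 and 49.3 with DMSO (-0.47 ± 0.13, edgeR adjusted p = 0.0379), a call that was lost in 6 of the 8 fits that left out a sample.

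A list of 15 sterol-responsive genes held 14 genes of cholesterol synthesis, the usual readout of SREBP2, and INSIG1, which encodes a protein that holds back SREBP processing. The 14 synthesis genes were tested, and INSIG1 was listed at 0 in every sample. HepG2 cells are known to express INSIG1, so its 0 is not read as an absence of its RNA. All 14 fell with compound 4 (median log2 fold change -1.10, from -1.65 to -0.67) and all 14 with compound 5 (median -1.43, from -2.26 to -0.74). With compound 6, 11 of 14 fell (median -0.75, from -1.0 to -0.50), and 7 did so with the replicate block. Over all tested genes, 5.42%, 14.2% and 1.6% fell with compounds 4, 5 and 6. Without DMSO replicate 2 the count for compound 6 was 0, without DMSO replicate 1 it was 3, and without compound 6 replicate 2 it was 2. In the same fits the calls over the whole table went from 590 to 1, 90 and 49. HMGCS1, which makes the precursor of mevalonate, had the lowest fold change with compounds 4 and 6. It went from 149 and 148 CPM with DMSO to 44.5 and 50.2 with compound 4 (-1.65 ± 0.13, edgeR adjusted p = 2.13e-04) and to 83.2 and 66.2 with compound 6 (-1.0 ± 0.12, edgeR adjusted p = 0.00465, and 0.0818 without DMSO replicate 2). With compound 5 the lowest was MSMO1, a sterol methyl oxidase, which went from 122 and 99.0 to 20.4 and 25.5 CPM (-2.26 ± 0.20, edgeR adjusted p = 9.66e-05). STARD4 and NPC1L1 lay within the range of these 14 genes with compounds 4 and 5, and above it with compound 6.

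Across the 8 samples, the log2 levels of STARD4 and NPC1L1 were correlated with r = 0.96, and those of SCARB1 with r = 0.88 and 0.89 with these genes. NPC1 had r = -0.62, -0.44 and -0.65 with STARD4, NPC1L1 and SCARB1, and NPC2 between -0.55 and 0.24 with the other 4. These values describe 8 points from 4 groups that share treatment and library, and carry no test. Among the 9310 genes whose mean reached 10 CPM, CES3, a carboxylesterase, was the gene most like both STARD4 (r = 0.989) and NPC1L1 (r = 0.981), with mean levels of 14.3, 9.15, 7.18 and 12.8 CPM in DMSO and compounds 4, 5 and 6. It was followed for STARD4 by FDFT1, the squalene synthase (r = 0.981; 292, 101, 61 and 170 CPM), and by PECR, a peroxisomal enoyl-CoA reductase (r = 0.98; 45.5, 33.0, 26.9 and 40.3 CPM). For NPC1L1 the next were BCAM, a laminin-binding adhesion molecule (r = 0.98; 172, 93.2, 68.1 and 147 CPM), and CD46, a complement regulator (r = 0.97; 218, 180, 158 and 204 CPM).

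The patterns of the other genes were matched by genes of varied function. For SCARB1 these were IVD, a mitochondrial enzyme of leucine breakdown (r = 0.992; 100, 94.0, 76.2 and 95.5 CPM), NREP (r = 0.992; 48.2, 38.5, 20.4 and 40.8 CPM) and NAGPA, an enzyme that uncovers the mannose 6-phosphate tag of lysosomal proteins (r = 0.989; 57.2, 47.2, 30.4 and 51.9 CPM). SLC9A7, a sodium and proton exchanger of the trans-Golgi network, was among the 3 most like NPC1 (r = 0.984; 15.0, 16.7, 19.5 and 19.6 CPM). For NPC2 they were SNX15, a sorting nexin (r = 0.962; 44.6, 48.9, 43.5 and 42.9 CPM), ENDOG, a mitochondrial nuclease (r = 0.962; 20.2, 24.2, 19.1 and 17.3 CPM), and MRPL34, a mitochondrial ribosomal protein (r = 0.961; 50.5, 63.1, 49.8 and 49.1 CPM).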

How the data were processed

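RNA of 8 samples was sequenced with a strand-specific kit. Per the labels and the study's methods, the authors quantified reads with Salmon 1.5.0 on GENCODE 38 (GRCh38), after FastQC 0.12.0, and replicate 1 of compounds 4 and 5 are each labelled as merged. The deposited values are estimated counts per gene, given as whole numbers with no scaling. Symbols were found for 60089 of 60230 identifiers, and coordinates and lengths are from GENCODE 29. The test was edgeR 4.0.16 (R 4.3.3, limma 3.58.1) after filterByExpr and TMM scaling (factors 0.958 to 1.04), with all 4 groups and 4 residual degrees of freedom, and checked on simulated data. Intervals are at 95% and use the residual degrees of freedom plus those that edgeR borrows across genes. Each SE was taken from the log2 fold change and its F statistic. The estimate of spread is shared over the groups, although replicates differed most with compound 4. The chi-square of replicate counts per degree of freedom was 17.16 there, against 5.51 with DMSO, 6.47 with compound 5 and 9.07 with compound 6.

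Alternatives were DESeq2 1.42.0, RLE, upper-quartile and library-size scaling, no filter, a minimum of 10 counts in each sample, the day as replicate block, only the groups compared, and leaving out each sample. Labels mark the samples of a group day 1 and day 2 under a time tag, which does not match the single 24 h exposure of the methods, and these were taken as replicate numbers. Deviations of same-numbered samples correlated at -0.083 to 0.16, so the numbers pair samples only by label.

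The genes and lists were chosen with earlier results of these data known. From the 4 transport lists, the text names for each compound up to 3 highest and 3 lowest called genes averaging 1 CPM or more, from the synthesis list the lowest, and for each of the 5 genes those most correlated. Not every gene chosen in this way is reported here. RMC1 and ISCA2 are named for their overlap. Shared sequence was low: 0.395% to 3.53% of the 31-base words of the 5 genes occur in transcripts of other genes. Reverse complements were not searched, so these shares do not cover the overlaps with RMC1 and ISCA2 on the opposite strand.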

Additional observations from a re-analysis of the deposited data

How the results depend on the processing

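Over the 8 alternative settings that keep all samples, 117 of 120 values of the 5 genes against DMSO kept their direction and their side of the threshold. The other 3 are NPC1 with compound 6, called at 0.43 with no filter (adjusted p = 0.0149), with only the groups compared (0.0431) and with DESeq2 (0.0324). Between compounds 111 of 120 were kept, and the replicate block, from day 1 and day 2 of the labels, ended 1 call of the 5 genes, NPC1L1 in compound 4 against 6 (-0.88, adjusted p = 0.0581). With only the groups compared this call (0.152) and that of NPC1L1 in compound 5 against 4 (-0.52, 0.0719) were lost. Called in an alternative were STARD4 in compound 4 against 6 (-0.58, no filter, 0.0323) and NPC2 in compound 5 against 4 (-0.40, library size, 0.0468). NPC1 and NPC2 in compound 5 against 6 changed sign to -0.04 under upper-quartile and library-size scaling. Library size alone moved the median of all genes with compound 5 by -0.11. Without a filter the genes called went from 590 to 1441 for compound 6, from 1869 to 2812 for compound 5 against 4, from 1329 to 2117 for compound 5 against 6 and from 6 to 294 for compound 4 against 6. With only the groups compared they were 869 for compound 5 against 4 and 2 for compound 4 against 6, where DESeq2 called 72. In the transport lists, genes called higher with compound 4 were 1 in place of 2 with the block, with upper-quartile or library-size scaling and with only the groups compared. For compound 6 they were 4 in place of 2 with no filter. Genes of these lists called lower with compound 6 were 2 in place of 1 with the block, DESeq2, library size, no filter or the stricter filter. In the synthesis list 7 in place of 11 were called lower with the block. These counts beyond the block and DESeq2 were added after seeing the data. The cause of these changes was not tested.

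When each sample was left out in turn, which leaves 3 residual degrees of freedom, 111 of 120 values against DMSO and 98 of 120 between compounds were kept. The genes called ranged from 335 to 1703 for compound 4, 1680 to 4519 for compound 5, 1 to 1096 for compound 6, 111 to 2709 for compound 5 against 4, 143 to 1875 for compound 5 against 6 and 0 to 117 for compound 4 against 6. STARD4 ranged from -0.97 to -0.65 with compound 4, and NPC1 from 0.40 to 0.57 with compound 5 and from 0.36 to 0.52 with compound 6, where it was called without either compound 4 sample. Signs turned for NPC2 with compound 5 (-0.18 to 0.05) and compound 6 (-0.25 to 0.01), both without DMSO replicate 1, for SCARB1 with compound 6 (-0.16 to 3.6e-03, without compound 6 replicate 2) and for NPC1 in compound 5 against 6 (-0.03 to 0.13, with -0.01 without compound 5 replicate 1). Transport genes called higher and lower ranged from 0 to 2 and 0 to 4 with compound 4, 3 to 10 and 2 to 7 with compound 5, and 0 to 3 and 0 to 2 with compound 6. Synthesis genes called lower ranged from 11 to 14 with compound 4 and from 0 to 14 with compound 6, and were 14 throughout with compound 5.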
